A study of Mus musculus with 4 samples.

Results

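The genes of the LIF-STAT3 self-renewal pathway were examined in mouse embryonic stem cells (ESCs) with and without REST, the zinc finger repressor that silences terminal neuronal genes in cells outside the nervous system. The members were chosen by name: Lif, Lifr, Il6st, Jak1, Jak2, Stat3, Socs3, Socs2, Pim1 and Pim3, which are 10 of the 26301 genes in the count table, and all 10 passed the filter on low counts. RNA-seq was done on 2 biological replicates of N6 ESCs (genotype WT) and 2 of N8 ESCs (genotype REST -/-, written Rest-/- here), so each genotype is represented by 1 cell line, and a difference between the lines and an effect of losing REST cannot be told apart. Both lines were grown in serum with LIF, at 1000 units/ml per the labels, while the methods of the study describe a medium with much less, so the dose is uncertain. The cells were kept first on irradiated embryonic fibroblasts and then for 3 passages on gelatin without them, and every library comes from cells that received the ligand of this pathway from the medium. Neither an arm without LIF nor phosphorylated STAT3 was measured here, and the values are amounts of RNA only. In such bulk samples, fewer cells of a type and less RNA per cell cannot be told apart.

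LIF is a cytokine of the interleukin-6 family. It binds a receptor made of LIFR and gp130 (the product of Il6st), and the JAK kinases attached to these chains phosphorylate STAT3, which then enters the nucleus and activates its targets. In mouse ESCs this signal holds back differentiation in serum culture. SOCS3 is induced by STAT3 and shuts the receptor down again, so its transcript is often read as a gauge of pathway output, and the PIM kinases are targets that favour survival and self-renewal.

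Socs3 and Socs2, listed here as feedback genes, were the only members with the STAT palindrome TTCCNGGAA in the 300 bases upstream of the annotated start. The stretch around it is shown for both. Both genes lie on the minus strand. The sequences are from NCBIM37 (mm9), read 5′ to 3′ on the strand of the gene, with the palindrome in capitals. The Socs3 stretch is chr11:117830523-117830591 and the Socs2 stretch is chr10:94879508-94879587.
Socs3: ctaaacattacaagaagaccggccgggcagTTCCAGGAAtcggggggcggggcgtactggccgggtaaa
Socs2: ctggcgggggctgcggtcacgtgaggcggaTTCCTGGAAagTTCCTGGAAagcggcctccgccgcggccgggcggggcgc

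The match in Socs3 began at position -61 from the start, and Socs2 carried 2 matches, at -66 and -55. The palindrome reads the same on both strands. Of 22380 protein-coding genes, 1.11% had it in the same window, and 8.07% had the looser TTCNNNGAA, which includes it. The looser form was likewise found in Socs3 and Socs2 alone among the members, and in 2 of the 53 other pathway genes. The core of RE1, the element that REST binds, was searched on both strands as CAGCACC and GGACAG separated by 2 bases. None of the 10 members and none of the 53 other pathway genes had it within 20000 bp of an annotated start, against 2.41% of the 12711 tested genes with 1 position in the annotation, and the nearest to a member was 105754 bp away, at Socs2. A match is a string of letters and not a measured site, and its absence says only that these letters were not found.

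The libraries held 22293966 to 30953863 counts on genes. All 10 ESC markers passed the filter, with summed levels of 4447 and 4501 CPM (the usual count of a gene relative to the library total, here scaled with edgeR's TMM method) in WT and 3783 and 4143 CPM in Rest-/- ESCs. They did not move as one: 3 lay lower in both Rest-/- libraries with an unadjusted p under 0.05, namely Zfp42 (log2 fold change -1.36, adjusted p = 0.179 in the edgeR fit), Fgf4 (-0.98, adjusted p = 0.215) and Nanog (-0.46, adjusted p = 0.546), while Utf1 lay higher and the other 6 overlapped. Over all tested genes, 15.4% lay lower in both Rest-/- libraries, 16.5% lay higher, and 6.71% had an unadjusted p under 0.05 in the edgeR fit. Rest itself had 255 and 233 CPM in WT and 164 and 176 CPM in Rest-/- ESCs (log2 fold change -0.52, standard error 0.13, adjusted p = 0.526 in the edgeR fit). A count over the whole gene cannot show which of its exons were read. The 12 markers of feeder fibroblasts summed to 44.2 and 42.8 CPM in WT, 141 CPM in Rest-/- replicate 1 and 40.5 CPM in Rest-/- replicate 2, with Lum at 0 in all 4 libraries. Rest-/- replicate 1 therefore stood apart in this sum. The near-equal WT sums hide differences by gene. Col1a1 had 11.8 and 6.42 CPM in WT and 46.1 and 8.22 CPM in Rest-/- ESCs. Col1a2, Col3a1, Postn, Twist2, Prrx1 and S100a4 were likewise higher in replicate 1 of each genotype. In WT, Acta2 (6.40 and 14.6 CPM), Fbn1, Thy1 and Dcn were instead higher in replicate 2. The 10 markers of primitive endoderm summed to 495 and 581 CPM in WT and to 766 and 749.9 CPM in Rest-/- ESCs. Lama1, Lamb1 and Sparc held most of each sum, so the sums say little about the other markers. By gene, 7 of the 10 lay higher in both Rest-/- libraries (beside 16.5% of all tested genes), while Sox17, Sox7 and Foxa2 overlapped.

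To ask whether the pathway differed between the genotypes, each gene was tested in edgeR (quasi-likelihood F test, p adjusted by Benjamini and Hochberg) over all 15444 genes that passed the filter. No member passed the threshold of 0.05, with 0.0583% of all tested genes passing it (9 of 15444). None of the 10 had an unadjusted p under 0.05 either, where 6.71% of all tested genes did. No member was called by edgeR's exact test with tag-wise dispersion (1.79% of all genes) or common dispersion (2.23%), or by DESeq2 (1.54%). With the replicate number as a block, however, 4 of the 10 were called (Lifr, Jak1, Pim1 and Pim3), as were 17.0% of all tested genes. The labels do not say what the replicate numbers share, so the fit with genotype alone was kept as the main one. The log2 fold changes (Rest-/- over WT) of the members ran from -0.28 for Lifr to 0.45 for Pim1, with a median of -0.050, beside -0.0047 over all tested genes. The median size of the change regardless of sign was 0.17 for the members and 0.18 for all tested genes. In 2 of the 10, Lifr and Stat3, the libraries of the genotypes did not overlap, beside 32.0% of all tested genes. With 2 libraries a genotype an exact two-sided permutation test of 1 gene cannot go below p = 0.333, so these are descriptions. The intervals below come from the fit with genotype alone, in which differences between replicate numbers add to the error. They show what changes that fit still allows, and not the limits under the replicate block.

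**Figure D1:**
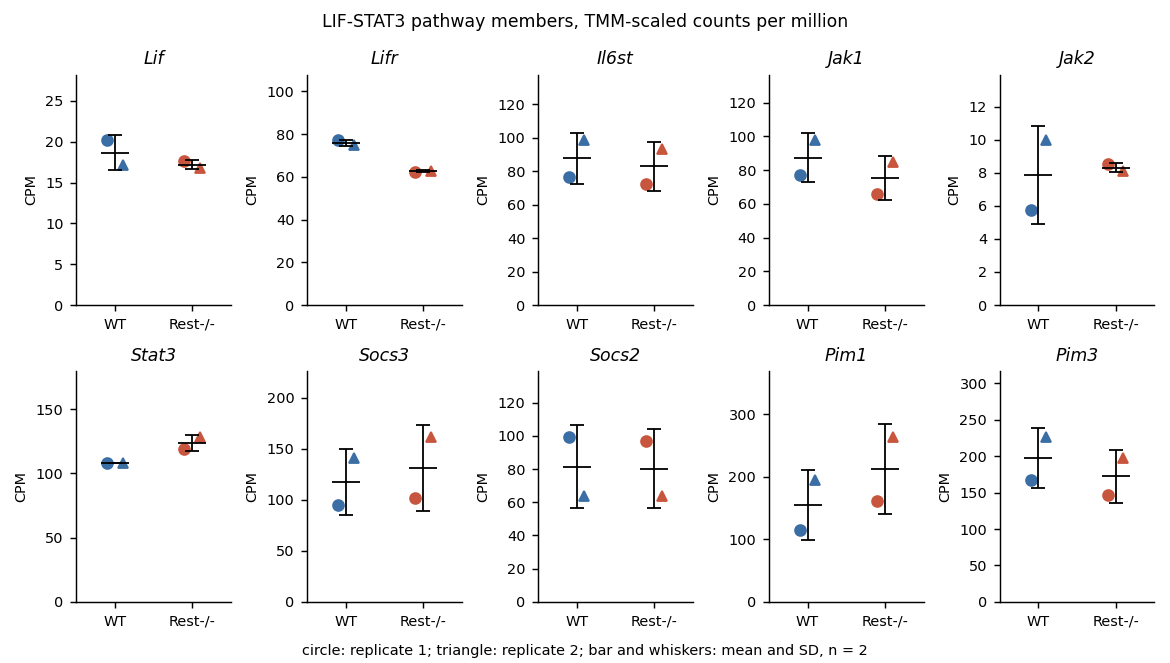
TMM-scaled CPM (y axis, from 0) of the 10 members in the WT (blue) and Rest-/- (red) libraries, with replicate 1 as circles, replicate 2 as triangles, and the mean with its SD (n = 2) as a bar with whiskers. Lifr and Stat3 are the panels in which the genotypes do not overlap, while in Socs3, Socs2, Pim1, Pim3, Il6st and Jak1 the circle and the triangle lie further apart than the 2 genotype means.

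The ligand gene Lif lies on chromosome 11 from 4157560 to 4172517 (NCBIM37, as all positions here). Its reads numbered 624 and 460 in WT and 454 and 372 in Rest-/- ESCs, which is 20.2 and 17.2 CPM against 17.6 and 16.8 CPM. The genotypes overlapped, and Lif RNA was found in the libraries of both lines, beside the LIF in the medium. Which cells of these bulk samples held it was not measured. The log2 fold change was -0.12 (95% interval -0.66 to 0.42).

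Lifr, the specific receptor chain, lies on chromosome 15 from 7079559 to 7147489 and was the member with the largest negative log2 fold change. It had 77.1 and 75.1 CPM in WT and 62.3 and 62.9 CPM in Rest-/- ESCs. Both WT libraries lay above both Rest-/- libraries, and replicates of 1 genotype differed little. The fold change was 0.82 (log2 -0.28, standard error 0.13, adjusted p = 0.878 in the edgeR fit), and it stayed between -0.30 and -0.27 on the log2 scale with any single library removed. Its 95% interval, -0.63 to 0.067, includes 0.

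Il6st encodes gp130, the chain shared by the receptors of the whole family, and lies on chromosome 13 from 113265216 to 113297068. It had 76.8 and 98.4 CPM in WT and 72.4 and 93.3 CPM in Rest-/- ESCs. The libraries sorted by replicate number and not by genotype: replicate 2 was 1.28 times replicate 1 in WT and 1.29 times in Rest-/- ESCs. Between the genotypes the log2 fold change was -0.080 (95% interval -0.64 to 0.48) and turned positive without WT replicate 2 (0.11) or Rest-/- replicate 1 (0.095).

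Jak1, the kinase through which gp130 mainly signals, lies on chromosome 4 from 100824972 to 100937887. Its levels were 77.2 and 97.6 CPM in WT and 66.0 and 84.7 CPM in Rest-/- ESCs, again higher in replicate 2 of each genotype. The log2 fold change was -0.21 (95% interval -0.77 to 0.34). Jak2 lies on chromosome 19 from 29326318 to 29387570 and was the least counted member, with 178 and 267 reads for WT and 220 and 180 for Rest-/- ESCs. That is 5.75 and 9.97 CPM against 8.52 and 8.13 CPM, with both Rest-/- libraries between the WT libraries. Its log2 fold change of 0.084 had the 95% interval -0.85 to 1.02 and turned to -0.27 without WT replicate 1. For Jak2, counting error alone was 7.45% in Rest-/- replicate 2, against 1.51% for Pim3 in the same library.

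Stat3, the transcription factor of the pathway, lies on chromosome 11 from 100746412 to 100800854. Its level was 108.2 and 108.3 CPM in WT and 119 and 128 CPM in Rest-/- ESCs. Both Rest-/- libraries lay above both WT libraries. The fold change was 1.14 (log2 0.19, standard error 0.13, adjusted p = 1.00 in the edgeR fit), with a 95% interval of -0.15 to 0.53 on the log2 scale, and it ranged from 0.13 to 0.25 with any single library removed. Exons of Stat3 overlap annotated exons of Stat5a on the other strand, those of Jak1 overlap Raver2 and those of Pim1 overlap Gm16912. Whether the counting used strand is not given in the sources used here, so reads from such shared stretches cannot be assigned to one gene of the pair.

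The feedback inhibitor Socs3 lies on chromosome 11 from 117827393 to 117831361. It had 94.8 and 140.5 CPM in WT and 101 and 161 CPM in Rest-/- ESCs. Both libraries numbered 2 lay above both libraries numbered 1, by 1.48 times in WT and 1.59 times in Rest-/- ESCs, and the genotypes overlapped. The log2 fold change between genotypes was 0.16 (standard error 0.31, 95% interval -0.68 to 0.99). It turned negative without WT replicate 1 (-0.10) or Rest-/- replicate 2 (-0.22).

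Socs2, a SOCS protein best known as a brake on growth hormone signalling, lies on chromosome 10 from 94847996 to 94879814. It ran the other way between the replicate numbers, with 99.2 and 63.7 CPM in WT and 97.1 and 63.6 CPM in Rest-/- ESCs. Replicate 2 held 0.64 times the level of replicate 1 in WT and 0.65 times in Rest-/- ESCs, while the genotypes were at means of 81.4 ± 25.1 and 80.3 ± 23.7 CPM (SD, n = 2 each). The log2 fold change between genotypes was -0.019 (95% interval -0.87 to 0.83). It turned to 0.33 without WT replicate 1 and to 0.25 without Rest-/- replicate 2. Within a library, the ratio of Socs3 to Socs2 in CPM was 0.96 and 1.04 in replicate 1 of WT and Rest-/- ESCs, and 2.21 and 2.54 in replicate 2. The 2 genes whose upstream stretches are shown above, each with the STAT palindrome, therefore moved in opposite directions between the replicate numbers.

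Among the PIM kinases, Pim1 lies on chromosome 17 from 29627757 to 29632390 and was the member with the largest positive log2 fold change. It had 116 and 194 CPM in WT and 161 and 263 CPM in Rest-/- ESCs. WT replicate 2 exceeded Rest-/- replicate 1, so the genotypes overlapped, but within each replicate number the Rest-/- library was higher, by 0.48 in replicate 1 and 0.44 in replicate 2 on the log2(CPM + 0.5) scale. The fold change was 1.37 (log2 0.45, standard error 0.36, adjusted p = 1.00 in the edgeR fit), with a 95% interval of -0.50 to 1.41. It fell to 0.12 without WT replicate 1 and to 0.052 without Rest-/- replicate 2, and was 0.88 without WT replicate 2 and 0.77 without Rest-/- replicate 1.

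Pim3, on chromosome 15 from 88692616 to 88696150, had 168 and 226 CPM in WT and 147 and 197 CPM in Rest-/- ESCs. Its difference between the genotypes was -0.19 within either replicate number, opposite in sign to that of Pim1. Replicate 2 was 1.35 times replicate 1 in WT and 1.34 times in Rest-/- ESCs. The log2 fold change was -0.19 (95% interval -0.81 to 0.42), and it turned to 0.038 without WT replicate 2 and was 0.0079 if Rest-/- replicate 1 was removed. The ratio of Pim3 to Pim1 in CPM was 1.45 and 1.16 in WT and 0.91 and 0.75 in Rest-/- ESCs, without overlap. This ratio was picked after the values had been seen and was not tested.

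In 8 of the 10 members the difference between replicate numbers, averaged over the genotypes, was larger than the difference between genotypes, as it was in 64.5% of all tested genes. In 8 of the 10 the difference between the numbers had the same sign in both genotypes, beside 82.5% of all tested genes. What the numbers stand for is not stated. The difference between genotypes had the same sign within replicate 1 and within replicate 2 in 9 of 10 members, Jak2 being the exception, beside 71.9% of all tested genes. The medians of these differences over the members were -0.057 within replicate 1 and -0.054 within replicate 2.

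**Figure D2:**
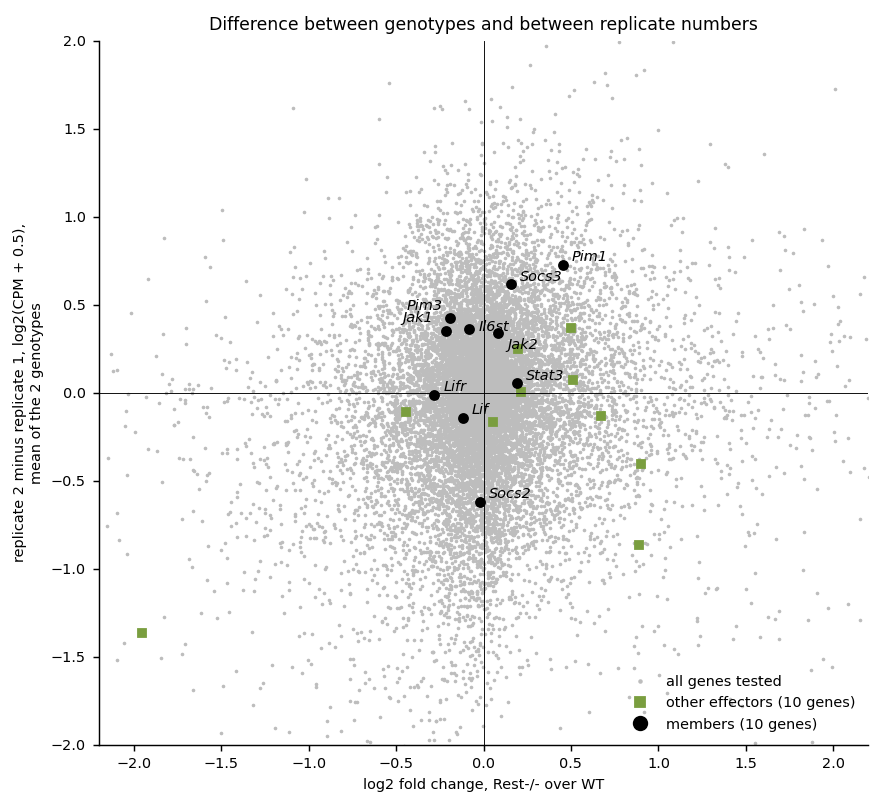
Each point is a gene, with the log2 fold change between genotypes (Rest-/- over WT) on the x axis and the difference of replicate 2 minus replicate 1 in log2(CPM + 0.5), averaged over the genotypes, on the y axis. Members are black, the 10 other effectors green and all tested genes grey, of which 197 lie outside the axes. Socs3 and Pim1 sit high, Socs2 sits low, and all members lie between -0.28 and 0.45 on the x axis.

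The genes whose profile over the 4 libraries was most like that of Socs3 were Mars, Aim1l, Celsr1, Wtip and Ptgfrn, out of 9660 tested genes with a mean of at least 10 CPM. Likeness was the root mean square distance of log2(CPM + 0.5), centred on each gene's mean, and it ran from 0.019 for Mars to 0.030 for Ptgfrn. With 4 libraries, this is a description of a profile and nothing more. Mars, for example, had 253 and 387 CPM in WT and 274 and 431 CPM in Rest-/- ESCs, higher in both libraries numbered 2.

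Levels of different genes can be compared only per length, so CPM was divided by the kilobases of annotated exon of each gene. On this scale the PIM kinases and Socs3 led. Pim1 (mean over the 4 libraries 93.1 CPM per kb) and Pim3 (76.2) stood highest, their ranges overlapped, and Socs3 followed at 43.1, with a range of 32.8 to 55.7 that lay below both. Next came Il6st at 16.4, Stat3 at 12.2 and Jak1 at 11.3 CPM per kb, and then the other feedback gene, Socs2, at 8.49 and Lifr at 6.71 CPM per kb. Lif stood at 4.12 and Jak2 at 1.61 CPM per kb. Neighbours from Stat3 to Lifr overlapped in range, whereas Il6st, Lif and Jak2 each lay below all libraries of the gene above, and Il6st above all of Stat3. The gp130 gene stood above its partner in every library, with a ratio of Il6st to Lifr per kb of 1.98 and 2.60 in WT and 2.31 and 2.94 in Rest-/- ESCs. Jak1 exceeded Jak2 per kb by 5.39 to 9.34 times. With the length of the longest transcript in place of all annotated exons, 3 members changed rank: Il6st moved from rank 4 to 7, Stat3 from 5 to 4 and Socs2 from 7 to 5. Il6st then had a mean of 16.4 CPM per kb against 19.2 for Stat3, so its place above Stat3 depends on the length used. The lengths are those of GENCODE M1, while the annotation used for the counts is not given in the sources used here.

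**Figure D3:**
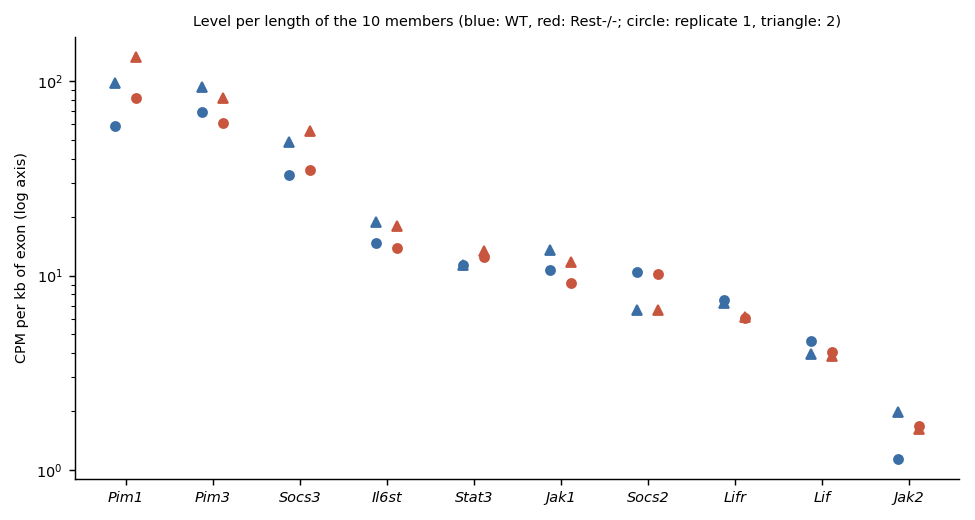
CPM per kilobase of annotated exon (y axis, log scale) of the 10 members in each library, blue for WT and red for Rest-/-, circles for replicate 1 and triangles for replicate 2. The genes are ordered by their mean, from Pim1 at 93.1 to Jak2 at 1.61. The genotypes differ far less than the highest and lowest genes do, but not always less than neighbouring genes.

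The other genes of the pathway were taken from a list of 53, of which 49 passed the filter on low counts and Il6, Cntf, Ctf2 and Il27 fell short of it (no more than 14 counts a library, and 0 throughout for Il27). None of the 49 passed the threshold in the edgeR fit, and 10 had an unadjusted p under 0.05 (beside 6.71% of all tested genes). With edgeR's exact test, 1 was called with tag-wise dispersion (beside 1.79% of all tested genes) and 3 with common dispersion (beside 2.23%). DESeq2 called 0 (beside 1.54%). Their median log2 fold change was 0.018. Both Rest-/- libraries lay above both WT libraries in 16 of the 49 (beside 16.5% of all tested genes) and below them in 7 (beside 15.4%). Among the genes with an unadjusted p under 0.05 were Osm, Osmr, Cntfr, Stat6, Pias3, Klf4, Klf5, Gbx2 and Junb, and without adjustment they are a description.

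Of the 9 ligand genes, 5 were tested and none was above 20 CPM. Osm, which encodes oncostatin M, was counted 43 and 41 times in WT against 10 and 7 times in Rest-/- ESCs, and its log2 fold change was -2.03 (95% interval -3.14 to -0.96, adjusted p = 0.385 in the edgeR fit). It was the gene called by the exact test with tag-wise dispersion (adjusted p = 0.0184), and it stayed between -2.19 and -1.91 with any single library removed. Ctf1, the gene of cardiotrophin, overlapped between genotypes, with 2.91 to 5.04 CPM in WT and 3.02 to 3.66 CPM in Rest-/- ESCs. Il11 was counted 8 and 14 times in WT against 24 and 22 times in Rest-/- ESCs, without overlap.

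Among the 5 other receptor genes, Cntfr, the GPI-anchored chain that binds CNTF and recruits LIFR and gp130, had 12.0 and 16.6 CPM in WT and 23.6 and 29.9 CPM in Rest-/- ESCs, so both Rest-/- libraries lay above both WT libraries (log2 fold change 0.91, standard error 0.26, adjusted p = 0.631 in the edgeR fit). Osmr, whose product pairs with gp130 for oncostatin M, was counted 7 and 2 times in WT against 26 and 12 times in Rest-/- ESCs. The fitted log2 fold change of 2.31 rests on these few counts, and the higher Rest-/- library was replicate 1, in which the fibroblast markers summed to 141 CPM, and the part of such cells was not tested. Without that library the log2 fold change was 1.79. Il6ra and Il11ra1 were at 1.72 to 4.24 CPM and overlapped between the genotypes.

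The remaining JAK genes differed in behaviour. Tyk2 had 80.5 and 69.8 CPM in WT and 85.9 and 78.7 CPM in Rest-/- ESCs. Jak3, which in lymphocytes works with the common gamma chain, had 113 and 61.5 CPM in WT and 55.5 and 32.2 CPM in Rest-/- ESCs, without overlap. The log2 fold change was -0.99 (standard error 0.41, adjusted p = 0.813). Its size depended on single libraries, since it came to -0.49 if WT replicate 1 was removed and to -0.66 if Rest-/- replicate 2 was.

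Of the 6 other STAT genes 0 lay higher and 2 lower in both Rest-/- libraries, beside 16.5% and 15.4% of all tested genes, and nothing is read from the group as a whole. Stat6, the factor of interleukin-4 signalling, had 49.6 and 50.9 CPM in WT and 36.4 and 36.7 CPM in Rest-/- ESCs (log2 fold change -0.46, standard error 0.14, adjusted p = 0.665). Stat2 had 33.8 and 40.8 CPM in WT and 30.6 and 32.5 CPM in Rest-/- ESCs. For both genes each WT library lay above each Rest-/- library.

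Adaptors link the receptor to the MAP kinase and PI3K branches, which run beside STAT3. Gab1, a docking protein, had 575 and 588 CPM in WT and 561 and 603 CPM in Rest-/- ESCs, and Ptpn11, which encodes SHP2, had 189 and 242 CPM in WT and 193 and 236 CPM in Rest-/- ESCs. Their log2 fold changes were 0.0018 (95% interval -0.31 to 0.32) and -0.0055 (95% interval -0.52 to 0.51). The adaptor Shc1 had 117 and 144 CPM in WT and 162 and 189 CPM in Rest-/- ESCs, a log2 fold change of 0.43 (95% interval -0.023 to 0.88).

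Among the 13 other negative regulators, 10 overlapped between the genotypes and 3 lay higher in both Rest-/- libraries, beside 16.5% of all tested genes, so the count is near the background. Pias3, named for its inhibition of activated STAT3, was 1 of these 3, with 34.6 and 34.9 CPM in WT and 54.9 and 55.5 CPM in Rest-/- ESCs. Its replicates were nearly equal, and its log2 fold change was 0.67 (standard error 0.14, adjusted p = 0.425 in the edgeR fit), between 0.65 and 0.68 with any single library removed. The SUMO ligase gene Pias2 had 184 and 122 CPM in WT and 185 and 119 CPM in Rest-/- ESCs, and so varied with the replicate number. The phosphatase genes Ptpn1 and Ptpn2 had log2 fold changes of 0.072 (95% interval -0.41 to 0.55) and -0.18 (95% interval -0.90 to 0.54).

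Among the 10 other effectors and targets the genotypes were separate in 8. In 6 of the 10 both Rest-/- libraries lay above both WT libraries (Klf5, Gbx2, Myc, Junb, Pim2 and Bcl3) and in 2 they lay below (Klf4 and Pramel7), beside 16.5% and 15.4% of all tested genes, and none passed the threshold in edgeR's quasi-likelihood test. The list was written with earlier results of these data known, and no test was made of the group. The sign of the difference within replicate 1 and within replicate 2 was the same for all 10, beside 71.9% of all tested genes. The primitive endoderm markers, of which 7 of 10 lay higher in both Rest-/- libraries, and the ESC markers Zfp42, Fgf4 and Nanog, which lay lower, moved beside this group, and their part in it was not tested.

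Klf5 and Klf4, related zinc finger factors that can each support self-renewal, lay on opposite sides. Klf5 had 132 and 109 CPM in WT and 192 and 194 CPM in Rest-/- ESCs (log2 fold change 0.67, standard error 0.15, adjusted p = 0.451 in the edgeR fit). Klf4, a direct STAT3 target, had 144 and 127 CPM in WT and 101 and 98.5 CPM in Rest-/- ESCs (log2 fold change -0.44, standard error 0.14, adjusted p = 0.665). Neither changed sign with a library left out, with ranges of 0.54 to 0.81 for Klf5 and -0.53 to -0.35 for Klf4. For both genes the libraries of the genotypes did not overlap, in opposite directions.

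Gbx2, a homeobox gene induced by STAT3, had 32.7 and 20.3 CPM in WT and 52.0 and 47.0 CPM in Rest-/- ESCs (log2 fold change 0.90, 95% interval 0.17 to 1.63). Without WT replicate 2 it was 0.60. Myc had 76.6 and 38.2 CPM in WT and 133 and 79.9 CPM in Rest-/- ESCs, higher in replicate 1 of each genotype, and its log2 fold change of 0.89 had an interval of -0.25 to 2.04. Removing WT replicate 1 raised it to 1.47, and removing WT replicate 2 or Rest-/- replicate 1 brought it to 0.48. Junb, an AP-1 subunit and immediate target of the family, had 56.3 and 61.6 CPM in WT and 83.6 and 84.7 CPM in Rest-/- ESCs (log2 fold change 0.51, 95% interval 0.15 to 0.88).

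The third PIM kinase gene, Pim2, had 54.3 and 77.4 CPM in WT and 85.9 and 100.4 CPM in Rest-/- ESCs. Like Pim1 it was higher in Rest-/- ESCs within both replicate numbers, by 0.66 and 0.37, and the interval of its log2 fold change was -0.097 to 1.10. Bcl3 had 48.5 and 46.1 CPM in WT and 53.5 and 56.4 CPM in Rest-/- ESCs. Pramel7 was low, with 7.56 and 2.99 CPM in WT and 2.24 and 0.45 CPM in Rest-/- ESCs, and its log2 fold change of -1.95 became -3.53 without Rest-/- replicate 1, -1.14 without WT replicate 1, and -1.24 if Rest-/- replicate 2 was removed.

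The effectors with the highest CPM, Tfcp2l1 and Mcl1, overlapped between the genotypes. Tfcp2l1, the factor that mediates much of the self-renewal response to STAT3, had 428 and 478 CPM in WT and 458 and 581 CPM in Rest-/- ESCs (log2 fold change 0.20, 95% interval -0.25 to 0.65). Mcl1, an antiapoptotic gene, had 518 and 457 CPM in WT and 534 and 478 CPM in Rest-/- ESCs (log2 fold change 0.055, 95% interval -0.31 to 0.42). For these 2 genes an increase of over 0.65 on the log2 scale lies outside the intervals.

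**Figure D4:**
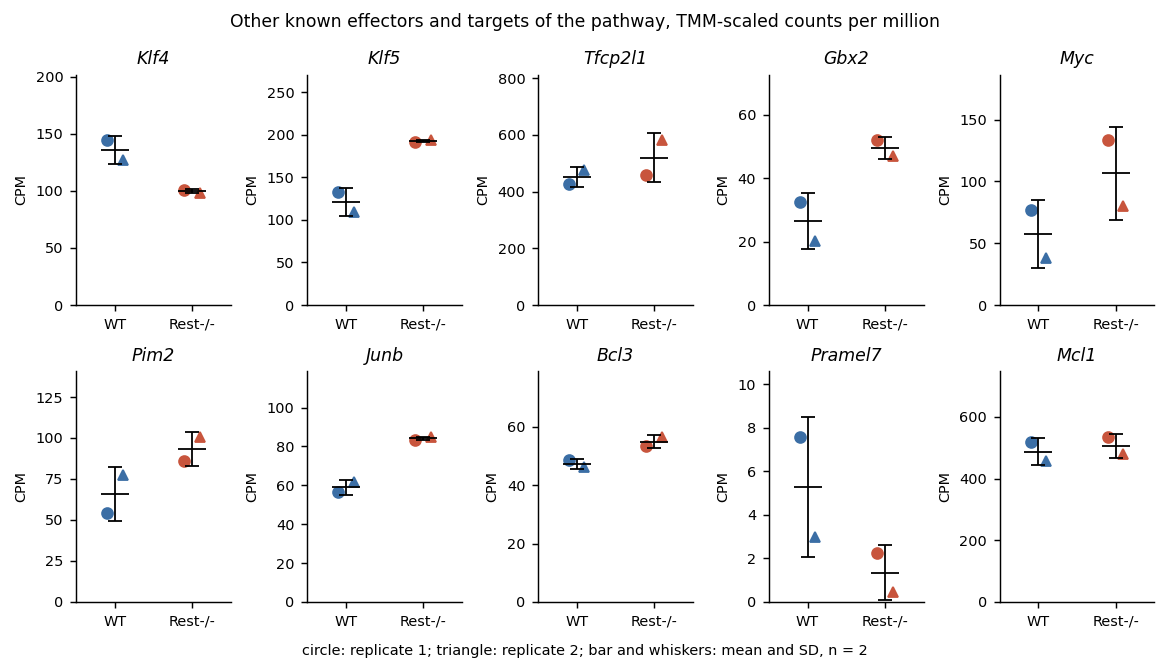
TMM-scaled CPM (y axis, from 0) of the 10 other effectors and targets in each WT (blue) and Rest-/- (red) library, with replicate 1 as circles, replicate 2 as triangles, and the mean with its SD (n = 2). In 6 panels both red points lie above both blue points, in the panels of Klf4 and Pramel7 they lie below, and Tfcp2l1 and Mcl1 overlap.

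**Figure D5:**
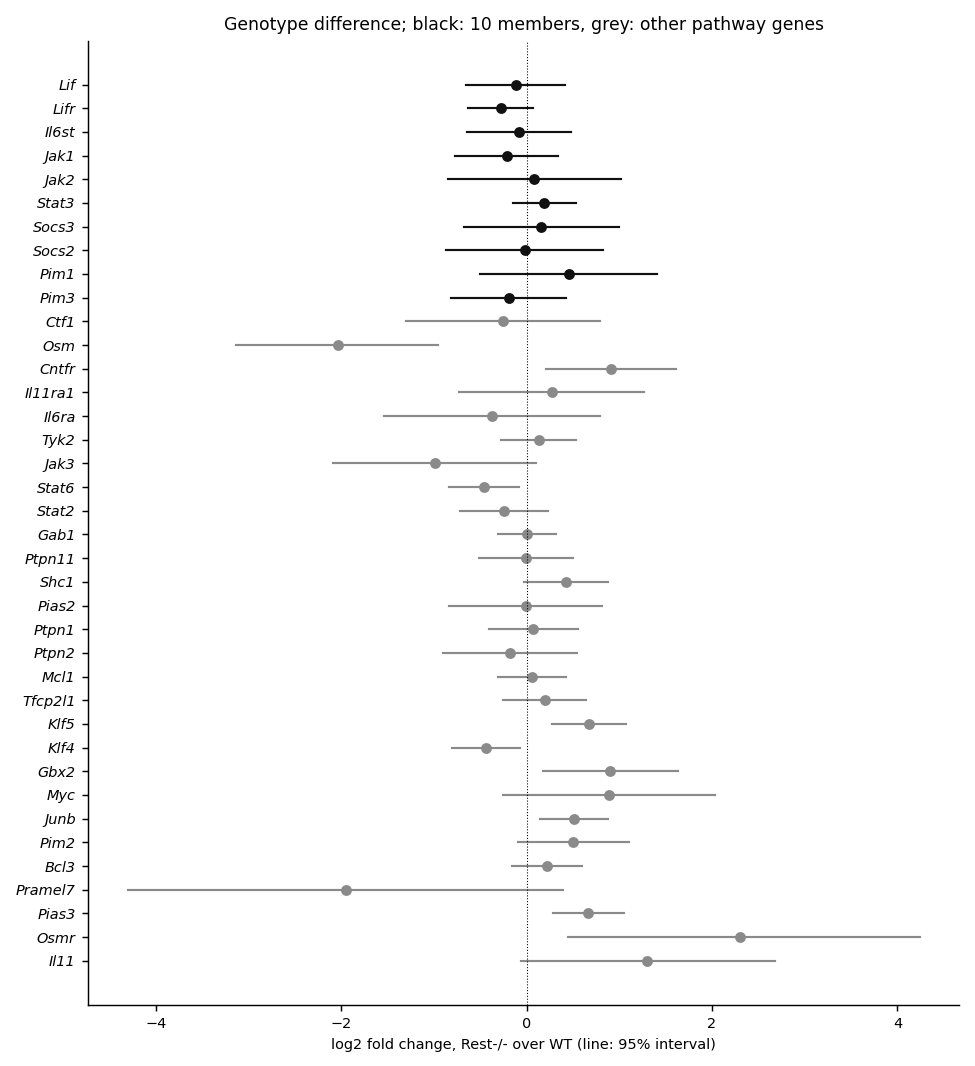
Log2 fold change between genotypes (points, Rest-/- over WT) for the 10 members (black) and the other pathway genes named in the text (grey). Lines are unadjusted 95% intervals from edgeR's quasi-likelihood fit with genotype alone, without the replicate number. All black lines cross 0, and the widest grey lines belong to the low-count genes Pramel7 and Osmr.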

How the data were processed

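RNA was measured in 2 WT and 2 Rest-/- ESC libraries (TruSeq, sequenced on an Illumina HiSeq). The authors mapped reads with Subread and assigned them with featureCounts (versions not given in the sources used here; the processing notes name mm9), and deposited raw counts per Entrez gene. Of 26669 rows, 368 without identifier and values were left out. Groups came from the genotype labels.

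From the counts, edgeR 4.0.16 in R 4.3.3 was run on all 4 libraries (TMM, filterByExpr, quasi-likelihood test, genotype alone, prior count 0.125, Benjamini-Hochberg). Standard errors and 95% intervals came from the same fit, with the unadjusted F statistic. Alternatives were other scalings and filters, edgeR's exact tests, DESeq2 1.42.0, a replicate block, prior count 2 and each library left out. The test was also run on simulated counts, with changes larger than that of any member and no effect of replicate number. That run therefore does not gauge power or error for the members. Depth was 30953863 and 27061056 counts in WT and 25461270 and 22293966 counts in Rest-/- libraries, so both WT libraries were deeper. Counting errors (100 divided by the square root of the count) cover counting alone. Positions, lengths and sequences came from NCBIM37 with GENCODE M1, using 1 start per protein-coding gene (that of the transcript numbered 001, otherwise the outermost) for the 300-base windows, and every annotated start for RE1. Python 3.11.15 was used for tables and figures.

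The members and lists were chosen with earlier results of these data known. Genes named are the members, per role the 3 other pathway genes with the highest mean CPM and any with adjusted p under 0.05, Rest, and the 5 tested genes nearest to Socs3. Klf4, Gbx2, Myc, Junb, Pim2, Bcl3, Pramel7, Pias3, Osmr, Il11, Zfp42, Fgf4, Nanog and Utf1 were singled out after their values were seen. Some genes that this rule names are counted in the lists but not reported here.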

Additional observations from a re-analysis of the deposited data

How the results depend on the processing

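Of the results with counts of calls, the number of genes called between the genotypes moved most: 9 as reported, 53 with no filter on low counts, 3 with at least 10 counts in every library, 277 and 344 with the exact test (tag-wise and common dispersion), 238 with DESeq2, and 60 to 113 with a library left out, where the lone library is assumed to vary like the pair. The other pathway genes called were 0, but 1 and 3 with the exact test (tag-wise and common dispersion). No member was called under any of these.

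The labels number the replicates 1 and 2 without saying what they share, so they were not treated as pairs. The correlation of same-numbered libraries' deviations from their group means was 0.81. With the replicate number as a block, 2621 genes (17.0%) were called, among them 4 members (Lifr, adjusted p = 0.0214, Jak1, 0.0492, Pim1, 0.00116, and Pim3, 0.0428) and 15 other pathway genes.

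The median log2 fold change of the members (-0.050) was -0.057 with RLE scaling or DESeq2, -0.046 with the upper quartile, -0.036 with library size alone and -0.060 with no filter, and ranged from -0.18 (without WT replicate 1) to 0.075 (without WT replicate 2). That of the other pathway genes (0.018) ranged from 0.027 to 0.067 with a library left out. Members that did not overlap numbered 5 to 7 with a library left out, beside 61.3% to 71.5% of all tested genes. With the longest transcript, 3 members changed rank.

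Of 377 values of single named genes under other settings, 349 kept direction and side of the threshold, 22 came to pass it and 6 changed sign. Of the 22, 18 came from the replicate block. The changes of sign were in Gab1 with RLE (-0.0052), DESeq2 (-0.0052), no filter (-0.0074) or at least 10 counts (-4.6e-05), and in Ptpn11 (0.0073) and Pias2 (0.0041) with library size alone. With a library left out, 14 of the 38 named genes changed sign, with ranges of -0.28 to 0.11 (Il6st), -0.27 to 0.53 (Jak2), -0.22 to 0.47 (Socs3), -0.35 to 0.33 (Socs2), -0.43 to 0.038 (Pim3), -0.59 to 0.19 (Ctf1), -0.0019 to 0.60 (Il11ra1), -0.90 to 0.0074 (Il6ra), -0.057 to 0.058 (Gab1), -0.18 to 0.19 (Ptpn11), -0.36 to 0.31 (Pias2), -0.080 to 0.24 (Ptpn1), -0.43 to 0.11 (Ptpn2) and -0.032 to 0.14 (Mcl1). The cause of these shifts was not tested, and 2 libraries a genotype limit every interval given.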
